A study of Mus musculus with 4 samples.

Results

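The genes described here are 10 members of the non-muscle actin machinery: the cytoplasmic actins Actb and Actg1, the thymosins Tmsb4x and Tmsb10, the profilins Pfn1 and Pfn2, the cofilins Cfl1 and Cfl2, and the Arp2/3 subunits Arpc2 and Arpc3. They were chosen by symbol, and all 10 were found among the 32647 gene symbols measured. In recruited renin cells, Tmsb4x was by far the most abundant of them, at 3744 ± 531 TPM (mean ± SD of 2 biological samples), followed by Actb at 658 ± 251 TPM and Actg1 at 533 ± 21.5 TPM. TPM is transcript abundance per transcript length, scaled to a common total, so that levels of different genes can be set side by side. In the paralogue pairs of thymosins and profilins, the same gene was the higher in every library, whereas Actb and Actg1 changed places in 1 library.

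Actin cycles between monomers and filaments, and the proteins encoded by these genes set the pace of that cycle. Thymosins hold monomers in reserve, profilins hand them to growing filament ends, the Arp2/3 complex starts new branches on existing filaments, and cofilins sever old filaments and return their subunits to the pool. Renin cells are modified vascular smooth muscle cells that store renin in granules, and vascular smooth muscle carries both a contractile actin, encoded by Acta2, and the cytoplasmic actins that are turned over beneath the cell membrane. The monomer pool is also read by coactivators of the transcription factor SRF, whose targets include actin genes.

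All 4 libraries came from 1 condition. Adult C57BL/6 mice carried a Ren1c-YFP transgene, a yellow fluorescent protein gene placed under the renin promoter. For 1 week they received a low salt diet and, in their drinking water, 0.5 g/L of captopril, which blocks angiotensin converting enzyme. Fluorescent cells of the kidney cortex were sorted, and cDNA was amplified from a small pool of them. There were 2 biological samples with 2 technical replicates each. The labels do not state whether a biological sample was 1 mouse or a pool, nor at which step the technical replicates were divided. Because the sort used the renin promoter, the cells were selected for its activity, and untreated cells are not analysed here. With 1 condition there was no comparison between groups and no test, and 2 biological samples cannot reach significance in any exact test.

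The libraries held 19871382 to 47471036 estimated counts, and 6405 to 8709 genes were at 1 TPM or more. The label of the cells was checked on defining genes. Ren1, the renin gene, ranged from 15933 to 29637 TPM and Akr1b7, an aldo-keto reductase of renin cells, from 1100 to 1806 TPM. Transcripts of the tubules were found too: the summed level of 8 proximal tubule markers was 970 and 810 TPM in the technical replicates of sample 1, and 1739 and 13047 TPM in those of sample 2. Kap alone supplied 1236 and 11140 TPM of the latter. Without it the sums of the other 7 were 914 and 790 TPM in sample 1, and 503 and 1907 TPM in sample 2, and they overlapped. Of those 7, Slc5a2 was higher in sample 2 and Slc22a6 in sample 1 by the rule given further on. Of all genes above 0 TPM, 6.70% were higher in sample 2 and 13.5% in sample 1. For 7 markers of the later nephron, from the loop of Henle onwards, the sums were 71.1 and 298 TPM in sample 1, and 1462 and 1315 TPM in sample 2. In RNA from a pool of cells, fewer cells of a type and less RNA per cell cannot be told apart. Technical replicates were correlated across genes (which are not replicates) with r = 0.767 in sample 1 and 0.720 in sample 2 on the log2(TPM + 1) scale, and libraries of different samples with r = 0.716 to 0.735.

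**Figure D1:**
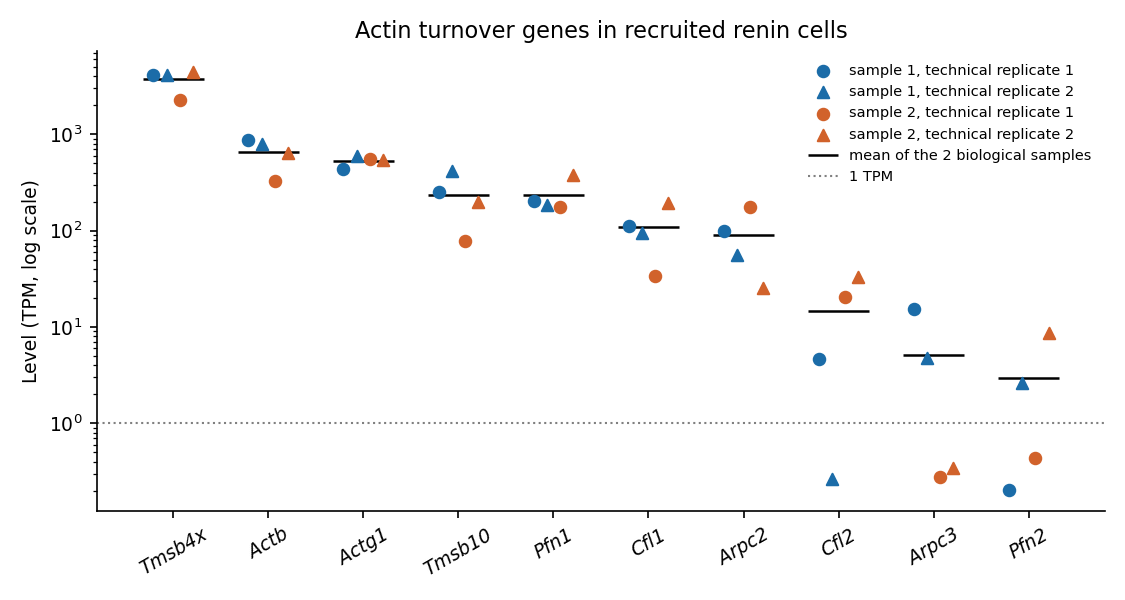
Level of each of the 10 genes in TPM on a log axis. Each point is a library (blue, biological sample 1; orange, biological sample 2; circles, technical replicate 1; triangles, technical replicate 2), black lines are the means of the 2 biological samples, and the dotted line is 1 TPM. Tmsb4x lies highest in every library, from 2271 to 4467 TPM, while Cfl2, Arpc3 and Pfn2 fall below 1 TPM in some libraries.

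Tmsb4x encodes thymosin beta 4, the main monomer-sequestering protein of many cell types, and Tmsb10 its close relative thymosin beta 10. Their coding sequences are shown to mark how far these related genes differ. Capitals mark the bases at which they differ, 40 of 132, so that 69.7% of the bases are identical. Both sequences are read 5′ to 3′ from GENCODE M21 on GRCm38, without the stop codon, and each joins 2 coding exons of a gene on the minus strand (Tmsb4x, chrX:167207504-167208036; Tmsb10, chr6:72957621-72958012).
Tmsb4x: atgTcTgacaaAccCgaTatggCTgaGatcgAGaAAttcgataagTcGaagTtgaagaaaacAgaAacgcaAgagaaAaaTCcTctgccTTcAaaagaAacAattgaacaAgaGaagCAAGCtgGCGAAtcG
Tmsb10: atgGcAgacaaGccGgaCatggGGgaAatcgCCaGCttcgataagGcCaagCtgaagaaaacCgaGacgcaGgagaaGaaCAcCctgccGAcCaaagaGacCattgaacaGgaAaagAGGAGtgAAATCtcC

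The Tmsb4x gene spans chrX:167207093-167209315. Its level was 4080 and 4158 TPM in the technical replicates of sample 1, and 2271 and 4467 TPM in those of sample 2. The lowest library was thus technical replicate 1 of sample 2, and the other 3 were close to one another. By its mean, Tmsb4x stood 26th of all 32647 symbols, and it made up 62.4% to 69.0% of the summed TPM of the 10 genes over the libraries. It exceeded Actb in every library, by 4.67-fold and 5.22-fold in sample 1 and by 6.95-fold and 7.04-fold in sample 2. It also exceeded Actb and Actg1 together, by 2.57-fold to 3.81-fold.

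Platelets and leukocytes are rich in thymosin beta 4, so blood cell markers were set beside these values. Transcripts of erythrocytes were present: the sum of 4 globin genes was 45.9 and 5083 TPM in sample 1, and 5906 and 10803 TPM in sample 2. The summed level of 4 platelet markers did not pass 0.279 TPM in any library, and the platelet chemokine genes Pf4 and Ppbp were listed at 0 in every library. The sum of 8 leukocyte markers was 27.8 and 22.4 TPM in sample 1, and 4.96 and 0.596 TPM in sample 2. It came mostly from the B cell gene Cd79a in sample 1, at 27.0 and 20.7 TPM, and the macrophage gene Lyz2 was listed at 0 throughout. Technical replicate 2 of sample 2, with the highest Tmsb4x, had the lowest leukocyte sum and the highest globin sum. In technical replicate 1 of sample 1, with the lowest globin sum, Tmsb4x was at 4080 TPM. The part of blood cells in the level of Tmsb4x was not tested.

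Tmsb10 (chr6:72957347-72958748) was at 250 and 420 TPM in sample 1, and at 78.1 and 197 TPM in sample 2, with a mean of 236 ± 140 TPM. Both libraries of sample 1 lay above both of sample 2, with means 2.43-fold apart on TPM + 1. Within each library, Tmsb4x exceeded Tmsb10. The log2 ratio of TPM + 1 was 4.02 and 3.30 in sample 1, and 4.84 and 4.50 in sample 2, with a mean of 4.17 ± 0.71. Each library of sample 2 had a larger ratio than each library of sample 1. No annotated transcript of another gene was found to share at least 100 bases at 85% identity or more with Tmsb4x. For Tmsb10 there were 9 genes of this kind. Of these, 8 were pseudogenes, and the 6 analysed summed to at most 0.969 TPM in a library. The other, Gm9844, is annotated as protein coding and matched over 466 bases at 99.1% identity. It was at 0.152 TPM in technical replicate 1 of sample 1 and at 0 elsewhere.

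Actb and Actg1 encode beta and gamma actin, which differ at few residues and are found in almost every cell. Over their coding bases, 997 of 1125 (88.6%) are identical. Actb (chr5:142903115-142906754) was at 874 and 797 TPM in sample 1, and at 327 and 635 TPM in sample 2. Both libraries of sample 1 lay above both of sample 2, with means 1.74-fold apart. Actg1 (chr11:120345690-120348542) was at 436 and 599 TPM in sample 1, and at 558 and 538 TPM in sample 2. It was the most even of the 10 genes, since its highest library was 1.37 times its lowest. Of 818 genes at a mean of 100 TPM or more, 1.47% had a smaller span, and the median span was 3.67-fold.

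The log2 ratio of Actb to Actg1 was 1.00 and 0.41 in sample 1, and −0.77 and 0.24 in sample 2, with a mean of 0.22 ± 0.69. Actb was thus the higher in 3 libraries and the lower in technical replicate 1 of sample 2, and the order of both actins was not separated from the spread between libraries. Processed pseudogenes resemble both genes. Of 13 similar to Actb and 16 similar to Actg1, 9 each were analysed, and their sums stayed at or below 1.28 TPM except in technical replicate 1 of sample 2. There, Gm15725, which is similar to both genes, was at 20.5 TPM and at 0 in the other libraries. This is the library in which Actb was lowest. Whether reads of Actb were assigned to the pseudogene was not tested.

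The start region of Actg1 is shown because, among the RefSeq promoters matched to 9 of the 10 genes (all but Actb), it was the only one to hold a CArG box, the element bound by SRF. The search covered 250 bases before to 50 after each start, on both strands, and 1.63% of 32851 mouse promoters of this length held a CArG box. The sequence TATAAA, searched on both strands, was in 13.6% of those promoters and in none of the 9 genes. The 150 bases before the start of transcription (GRCm38.p6, chr11:120348496-120348645, minus strand, read 5′ to 3′) follow, with the CArG box in capitals. It lies 90 to 81 bases before this RefSeq start, and the match is a description of the letters only. The GENCODE M21 gene begins further upstream, at chr11:120348542, so part of the stretch shown lies inside that gene. The CArG box lies before both starts, but closer to the GENCODE one.
Actg1: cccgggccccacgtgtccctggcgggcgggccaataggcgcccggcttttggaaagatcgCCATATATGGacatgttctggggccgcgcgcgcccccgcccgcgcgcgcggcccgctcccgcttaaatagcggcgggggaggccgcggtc

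Srf itself was at 4.39 and 8.67 TPM in sample 1, and at 6.37 and 7.87 TPM in sample 2. Of its actin-sensing coactivators, Mkl1 was at 8.57 and 1.64 TPM in sample 1, and at 15.7 and 0.0215 TPM in sample 2. Mkl2 was at 4.67 and 1.59 TPM in sample 1, and at 0.115 and 0.0478 TPM in sample 2. It was thus higher in sample 1 by the rule given further on (13.5% of all genes above 0 TPM were). Of these 3 genes, only Srf reached 1 TPM in every library.

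**Figure D2:**
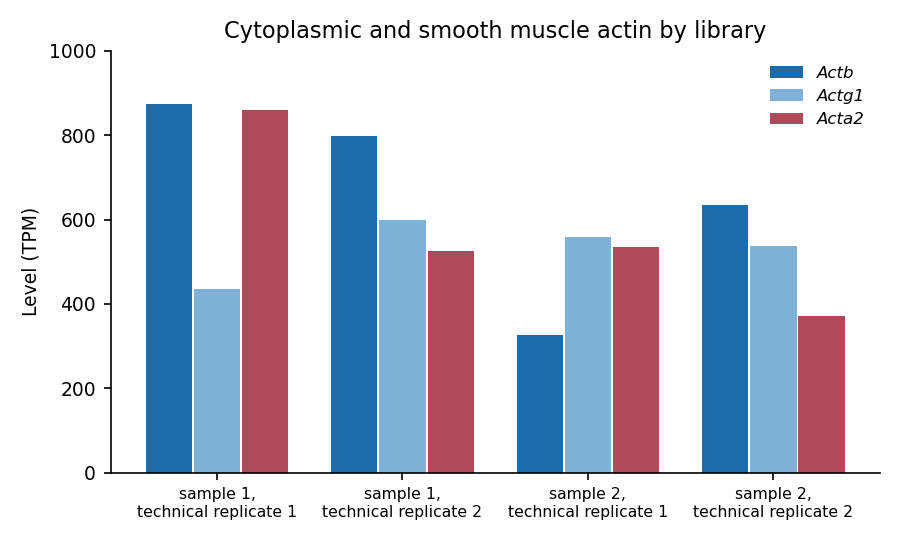
Level in TPM of the cytoplasmic actins Actb and Actg1 and of smooth muscle actin Acta2 in each library, as bars that start at 0. Actb is the tallest in 3 libraries and the shortest in technical replicate 1 of sample 2, where it is at 327 TPM, and Actg1 is the most even.

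Acta2, the contractile actin of smooth muscle, was of the same order as the cytoplasmic actins. It was at 859 and 525 TPM in sample 1, and at 535 and 371 TPM in sample 2, with a mean of 573 ± 169 TPM. Actb and Actg1 together made up 60.1% and 72.5% of the summed TPM of the 6 actin genes in sample 1, and 62.3% and 75.8% in sample 2, with a mean of 67.7 ± 1.91%. That share differed more between technical replicates than between the biological samples, so its SD understates its error. The other muscle actins were low: Actg2 was at 4.01 ± 2.63 TPM, Acta1 of skeletal muscle at 0.313 ± 0.403 TPM and Actc1 of heart muscle at 0.0442 ± 0.0625 TPM.

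Pfn1, the widespread profilin, exceeded Pfn2, the profilin most abundant in neurons. Pfn1 (chr11:70651850-70654644) was at 205 and 185 TPM in sample 1, and at 175 and 378 TPM in sample 2, with a mean of 236 ± 57.5 TPM. Technical replicate 2 of sample 2 stood above the other 3 libraries. Pfn2 (chr3:57841895-57848079) was at 0.205 and 2.63 TPM in sample 1, and at 0.439 and 8.62 TPM in sample 2. It was thus below 1 TPM in technical replicate 1 of both samples, and the samples overlapped. Its mean of 2.97 ± 2.20 TPM became 0.927 TPM without technical replicate 2 of sample 2 and 5.02 TPM without technical replicate 1 of that sample. The log2 ratio of Pfn1 to Pfn2 was 7.42 and 5.68 in sample 1, and 6.93 and 5.30 in sample 2, with a mean of 6.33 ± 0.31. Pfn1 was the higher in all 4 libraries, but the size of the ratio depended on the pseudocount, because Pfn2 was close to 1 TPM. Their coding sequences share 259 of 420 bases (61.7%).

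Cfl1 encodes cofilin 1 of non-muscle cells and Cfl2 the cofilin of muscle. Cfl1 (chr19:5490455-5495201) was at 112 and 94.3 TPM in sample 1, and at 33.6 and 195 TPM in sample 2. The libraries of sample 2 lay on either side of those of sample 1, so that the mean of 109 ± 8.01 TPM has a small SD for a gene whose libraries spanned 5.82-fold. Its mean rested on both: it was 149 TPM with technical replicate 1 of sample 2 left out, and 68.4 TPM with technical replicate 2 left out. Snx32 overlaps Cfl1 on the opposite strand and was at 5.75 and 28.7 TPM in sample 1, and at 1.86 and 0.0144 TPM in sample 2. Without strand information, reads of the overlap cannot be told apart.

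Cfl2 (chr12:54858809-54862877) was at 4.71 and 0.262 TPM in sample 1, and at 20.6 and 33.1 TPM in sample 2. Both libraries of sample 2 lay above both of sample 1, with means 7.98-fold apart on TPM + 1. Kap and 5 of 7 markers of the later nephron were also higher in sample 2 (6.70% of all genes above 0 TPM were). The summed levels of the other proximal tubule markers overlapped. The part of tubule cells in the difference of Cfl2 was not tested. No smooth muscle marker was higher in sample 2: the sum of the 5 was 1850 and 1123 TPM in sample 1, and 1132 and 869 TPM in sample 2. Of the 5, Cnn1 was higher in sample 1 (13.5% of all genes above 0 TPM were). It was at 39.8 and 37.0 TPM there, against 5.39 and 3.63 TPM in sample 2. The log2 ratio of Cfl1 to Cfl2 was 4.31 and 6.24 in sample 1, and 0.68 and 2.53 in sample 2, with a mean of 3.44 ± 2.59. Cfl1 was the higher in all 4 libraries, by least in technical replicate 1 of sample 2. The pair shares 356 of 498 coding bases (71.5%).

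The cofilin family has a further gene, Dstn, which encodes destrin, an actin-depolymerising factor. Dstn was at 573 and 443 TPM in sample 1, and at 334 and 161 TPM in sample 2, with a mean of 378 ± 184 TPM. Its level was 5.12-fold and 4.70-fold that of Cfl1 in sample 1, and 9.95-fold and 0.826-fold in sample 2. Dstn was thus the most abundant gene of the family in 3 libraries, where it made up 82.4% to 86.1% of the summed TPM of Dstn, Cfl1 and Cfl2. In technical replicate 2 of sample 2, in which Cfl1 was highest, it made up 41.4%.

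**Figure D3:**
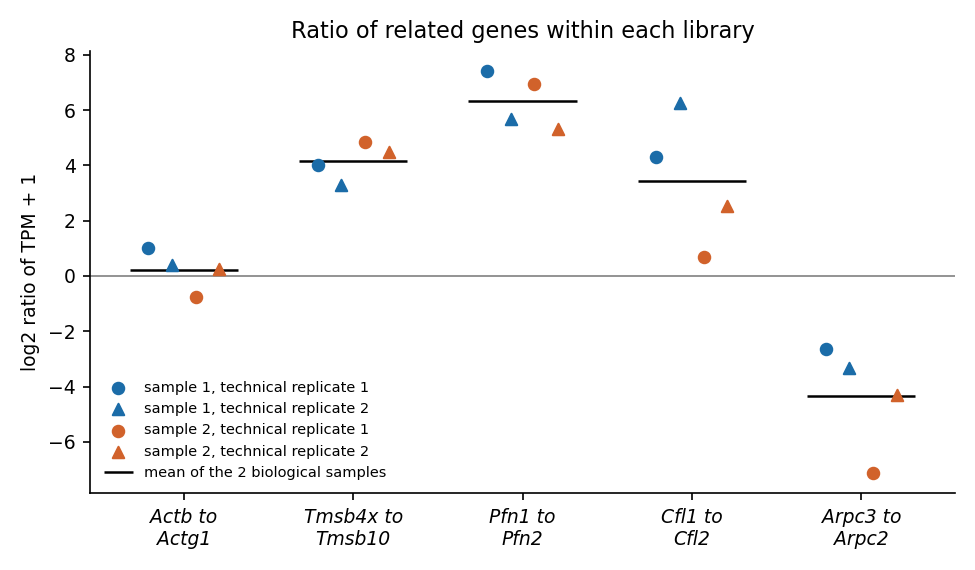
log2 ratio of TPM + 1 of the first gene to the second in each library, with colours for the biological samples and shapes for the technical replicates as in the plot of levels. Black lines are the means of the 2 biological samples. The ratio of Tmsb4x to Tmsb10 lies between 3.30 and 4.84, that of Pfn1 to Pfn2 between 5.30 and 7.42, and only that of Actb to Actg1 crosses 0.

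Arpc2 and Arpc3 encode subunits of the Arp2/3 complex, which contains each of its subunits in equal number. Their transcript levels were not equal, and these are not amounts of protein in the complex. Arpc2 (chr1:74236084-74268209) was at 100 and 56.5 TPM in sample 1, and at 178 and 25.5 TPM in sample 2. The highest and the lowest library were thus technical replicates of the same sample, and the mean was 52.0 TPM without the highest library and 128 TPM without the lowest. Arpc3 (chr5:122391878-122414184) was at 15.3 and 4.76 TPM in sample 1, and at 0.277 and 0.341 TPM in sample 2, which stood for 137 and 73.4 estimated counts in sample 1, and 4.18 and 7.06 in sample 2. Both libraries of sample 1 lay above both of sample 2, with means 8.43-fold apart on TPM + 1. The log2 ratio of Arpc3 to Arpc2 was −2.64 and −3.32 in sample 1, and −7.13 and −4.30 in sample 2, with a mean of −4.35 ± 1.94. Arpc3 was the lower in all 4 libraries. Its mean was 2.53 TPM without technical replicate 1 of sample 1 and 7.81 TPM without technical replicate 2 of that sample. No pseudogene similar to Arpc3 was found by the search described above, and 1 similar to Arpc2 was not analysed here.

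The other genes of the complex varied to different degrees. Of 10 subunit genes, 1 to 3 were below 1 TPM in each library. In sample 1 they were Actr3b in technical replicate 1, and Actr3b, Arpc4 and Arpc5l in technical replicate 2. In sample 2 they were Arpc1b and Arpc3 in technical replicate 1, and Actr3b and Arpc3 in technical replicate 2. Arpc1a was the most even, at 73.7 and 64.7 TPM in sample 1, and at 47.9 and 50.1 TPM in sample 2. Arpc5l, in contrast, was at 65.0 and 0.182 TPM in sample 1, and at 123 and 46.6 TPM in sample 2, and Arpc4 fell to 0.0589 TPM in technical replicate 2 of sample 1 against 9.09 to 29.7 TPM elsewhere. Actr3, which encodes one of the actin-related proteins of the complex, was higher in sample 2 (6.70% of all genes above 0 TPM were). It was at 59.7 and 65.5 TPM there, against 42.9 and 8.86 TPM in sample 1. Actr2, which encodes the other, was higher in sample 1 (13.5%), at 35.9 and 16.7 TPM against 6.94 and 13.6 TPM. By its mean of 5.17 ± 6.88 TPM, Arpc3 was the lowest of the 10, below Actr3b at 7.39 ± 10.4 TPM, whose level came from technical replicate 1 of sample 2 alone.

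**Figure D4:**
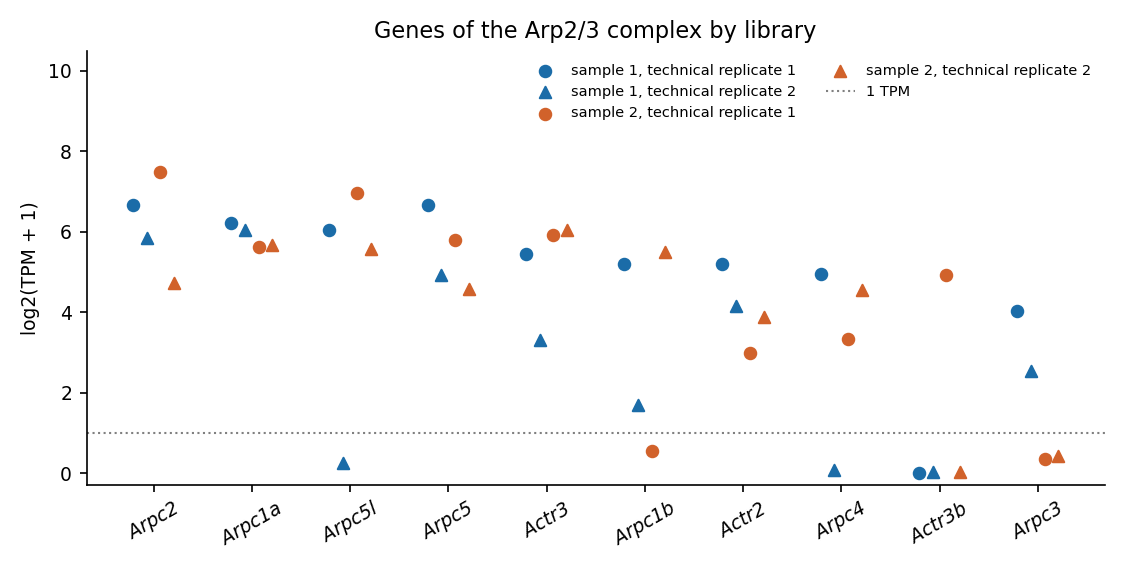
log2(TPM + 1) of the 10 genes of the Arp2/3 complex in each library, with colours and shapes as in the plot of levels and a dotted line at 1 TPM. Arpc1a lies within 47.9 to 73.7 TPM, whereas Arpc3 is below 1 TPM in both libraries of sample 2 and Actr3b is above it in 1 library.

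In all, 7 of the 10 reached 1 TPM in every library, against 9.74% of all symbols and 40.6% of the 7602 genes with a mean level within the range of the 10. The genes that were not were Cfl2, at 1 TPM or more in 3 libraries, and Arpc3 and Pfn2, in 2 libraries each. In the order of the means, 3 of 9 neighbours were separated in every library: Tmsb4x lay above Actb, Actg1 above Tmsb10, and Pfn1 above Cfl1. The other neighbours (Actb and Actg1, Tmsb10 and Pfn1, Cfl1 and Arpc2, Arpc2 and Cfl2, Cfl2 and Arpc3, Arpc3 and Pfn2) changed places in at least 1 library. Of the 45 pairs, 36 kept their order in all 4 libraries.

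A gene was said to differ between the biological samples where their libraries did not overlap and the ratio of their means of TPM + 1 was 2-fold or larger. By this rule 1 of the 10 genes, Cfl2, was higher in sample 2 (6.70% of 19229 genes above 0 TPM were), and 2, Tmsb10 and Arpc3, were higher in sample 1 (13.5% were). At 4-fold Cfl2 and Arpc3 were left (4.12% of genes were higher in sample 2 and 6.90% in sample 1), and at 1.5-fold Actb was added to the 3 (7.60% and 16.7%). Of the 6 genes at a mean of 100 TPM or more, none was higher in sample 2 (15.9% of 818 genes at this level were) and 1, Tmsb10, in sample 1 (17.6%). This compares 2 samples of 1 condition and not conditions. The calls for Cfl2 and Arpc3 were made with any library left out, but with a pseudocount of 10 in place of 1 Arpc3 was 1.94-fold apart and no longer met the rule. The call for Tmsb10 was lost without technical replicate 2 of sample 1 or technical replicate 1 of sample 2, where Pfn2 was higher in sample 2 instead, and in the latter case Arpc2 was also higher in sample 1. As many as 6 genes met the rule without technical replicate 2 of sample 2: Cfl2 and Arpc2 were then higher in sample 2, and Actb, Tmsb10, Cfl1 and Arpc3 in sample 1.

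Technical replicates were compared with each other too. More than 2-fold apart were 3 of the 10 genes in sample 1 (61.2% of genes in the same range of levels were) and 5 in sample 2 (63.2%). Of the 6 more abundant genes, none was in sample 1 (34.6%) and 3 were in sample 2 (37.7%), namely Tmsb10, Pfn1 and Cfl1. Of those 6, 5 had their lowest level in technical replicate 1 of sample 2 (36.4% of the 818 genes at this level did), and Actg1 did not. The summed share of the 10 genes was 0.608% and 0.632% of all TPM in sample 1, and 0.364% and 0.648% in sample 2, with a mean of 0.563 ± 0.0806%. Mitochondrially encoded genes took 25.9% of all TPM in the library with the low share, against 9.26% to 14.9% in the others. When TPM was rescaled without them, Tmsb4x was at 3063 TPM there against 4553 to 5249 TPM elsewhere, Actb at 441 TPM against 746 to 975 TPM, and both were still lowest in that library, whereas Pfn1 was not.

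The genes whose levels ran closest to those of Actb and Tmsb4x over the 4 libraries were found by the root mean square difference of log2(TPM + 1), each gene centred on its own mean, among 799 genes. These were the 818 at a mean of 100 TPM or more without 6 members and 13 mitochondrially encoded genes. For Actb they were Ndufs5 (0.0433), Ndufa2 (0.0808) and Tma7 (0.0812). Ndufs5 was at 2547 and 2424 TPM in sample 1, and at 1009 and 2012 TPM in sample 2. For Tmsb4x they were Rpl14 (0.0595), Atp6v0c (0.0667) and Rps18 (0.0701). Rpl14 was at 853 and 863 TPM in sample 1, and at 428 and 917 TPM in sample 2. Ndufs5 and Ndufa2 encode subunits of respiratory complex I, Rpl14 and Rps18 proteins of the ribosome, and Atp6v0c a subunit of the vacuolar proton pump. All 6 were lowest in technical replicate 1 of sample 2, as were Actb and Tmsb4x, so this follows from how they were chosen. The distance between Actb and Tmsb4x was 0.257, and that between Actb and Actg1 was 0.638, so that each actin ran closer to Tmsb4x (0.459 for Actg1) than to the other. These distances rest on 4 libraries that share their samples in pairs and are a description only.

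Around these 10 genes, 102 further genes of the pathway were measured. Of these, 31 (30.4%) reached 1 TPM in every library, against 16.5% of genes above 0 TPM in any library, and their median level was 5.51 TPM against 1.33 TPM. Of the 102, 10 (9.80%) were higher in sample 2 and 14 (13.7%) in sample 1, against 6.70% and 13.5% of all genes above 0 TPM. The latter share is near that of all genes. Wasf1, Tmsb15a, Pfn4 and Avil were listed at 0 in every library. Of the 102, only Dstn and Acta2 exceeded 100 TPM in the mean.

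Among genes that bind monomers beside the thymosins and profilins, none of 10 reached 1 TPM in every library. The highest was Tmsb15l, a further thymosin gene, at 0.135 and 0.235 TPM in sample 1 and 3.04 and 19.8 TPM in sample 2. The twinfilin gene Twf2 followed at 5.45 ± 7.57 TPM and Cap2 at 4.06 ± 5.12 TPM. Twf2 was at 21.6 TPM in technical replicate 1 of sample 2 and at most at 0.190 TPM elsewhere. Cap2 was at 15.3 TPM in technical replicate 2 of sample 1 and at most at 0.656 TPM elsewhere. Tmsb15l was higher in sample 2 (6.70% of all genes above 0 TPM were) and the twinfilin gene Twf1 higher in sample 1 (13.5%). Cap1, which encodes a cyclase-associated protein that recycles actin monomers with cofilin, was at 0.166 to 3.48 TPM.

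Of 21 activators and inhibitors of Arp2/3, 8 reached 1 TPM in every library, and 2 reached 5 TPM. Brk1, the smallest subunit of the WAVE complex, led them at 68.1 ± 48.8 TPM, with 32.0 and 35.2 TPM in sample 1 and 50.5 and 155 TPM in sample 2. Coro1c, a coronin, was at 22.5 ± 0.806 TPM and Nckap1, another WAVE subunit, at 14.2 ± 14.1 TPM. The small SD of Coro1c leaves out its technical spread, since its libraries of sample 2 were at 11.9 and 34.3 TPM. Brk1, Wasl, Cyfip2, Cttn and Whamm were higher in sample 2 (6.70% of all genes above 0 TPM were), and Abi1, Cyfip1 and Gmfg in sample 1 (13.5%). Gmfg was at 0.603 and 30.9 TPM in sample 1, and at 0.336 and 0.466 TPM in sample 2, so its difference came mostly from 1 library. Formins and other nucleators, which start unbranched filaments, were scarcer: 1 of 14, Inf2, reached 1 TPM in every library, at 2.74 to 5.65 TPM, and none reached 5 TPM. Fhod1 had the highest mean, at 12.5 ± 6.24 TPM, with Fmnl1 at 8.51 ± 11.9 TPM and Fmnl2 at 5.52 ± 6.80 TPM. Fhod1 ranged from 0.118 to 33.7 TPM. In technical replicate 1 of sample 1, Fmnl1 was at 33.9 TPM and Fmnl2 at 20.6 TPM. Elsewhere they were at most at 0.110 and 1.39 TPM, so their means came mostly from 1 library. Fhod3 and Cobl were higher in sample 2 (6.70% of all genes above 0 TPM were) and Fmnl3 in sample 1 (13.5%). Cobl was low throughout, at 0.0205 and 0 TPM in sample 1, and at 0.865 and 1.51 TPM in sample 2. Fmnl3 was at 17.8 TPM in technical replicate 1 of sample 1 and at 0.00724 to 0.0354 TPM elsewhere.

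Among 9 partners and regulators of cofilin, Dstn and Wdr1 reached 1 TPM in every library. Wdr1, whose product speeds disassembly of cofilin-coated filaments, was at 20.7 and 21.7 TPM in sample 1, and at 8.34 and 7.58 TPM in sample 2. Ssh1, a phosphatase that activates cofilin, had a mean of 9.08 ± 12.7 TPM that came from 36.0 TPM in technical replicate 2 of sample 2. Of the kinases that inactivate cofilin, Limk1 was at 0.727 to 4.08 TPM, Limk2 at 0.123 to 1.92 TPM and Tesk1 at 0.167 and 12.3 TPM in sample 1 and at 21.0 and 2.55 TPM in sample 2. Dstn, Wdr1, Limk1 and Tesk2 were higher in sample 1 (13.5% of all genes above 0 TPM were). Tesk2 was at 0.0123 and 2.90 TPM in sample 1, and was listed at 0 in both libraries of sample 2.

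Of 17 genes that cap or sever filaments, 4 reached 1 TPM in every library: Gsn, Capg, Capzb and Capza2. Gsn, the gelsolin gene, was at 104 and 139 TPM in sample 1, and at 32.8 and 47.0 TPM in sample 2. Capg was at 38.6 ± 14.0 TPM and Capzb, a subunit of capping protein, at 27.3 ± 11.6 TPM. Gsn and Tmod1 were higher in sample 1 (13.5% of all genes above 0 TPM were) and Scin in sample 2 (6.70%). Crosslinkers and adhesion linkers were the most often detected group, with 10 of 16 at 1 TPM or more in every library. Tln1, the talin gene, was at 93.6 ± 27.7 TPM, Flna, the filamin A gene, at 75.0 ± 39.4 TPM and Actn4, a non-muscle actinin gene, at 46.6 ± 24.2 TPM. Only Vasp differed between the samples in this group, at 7.66 and 23.9 TPM in sample 1, and at 0.311 and 1.93 TPM in sample 2. It was higher in sample 1, as were 13.5% of all genes above 0 TPM.

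**Figure D5:**
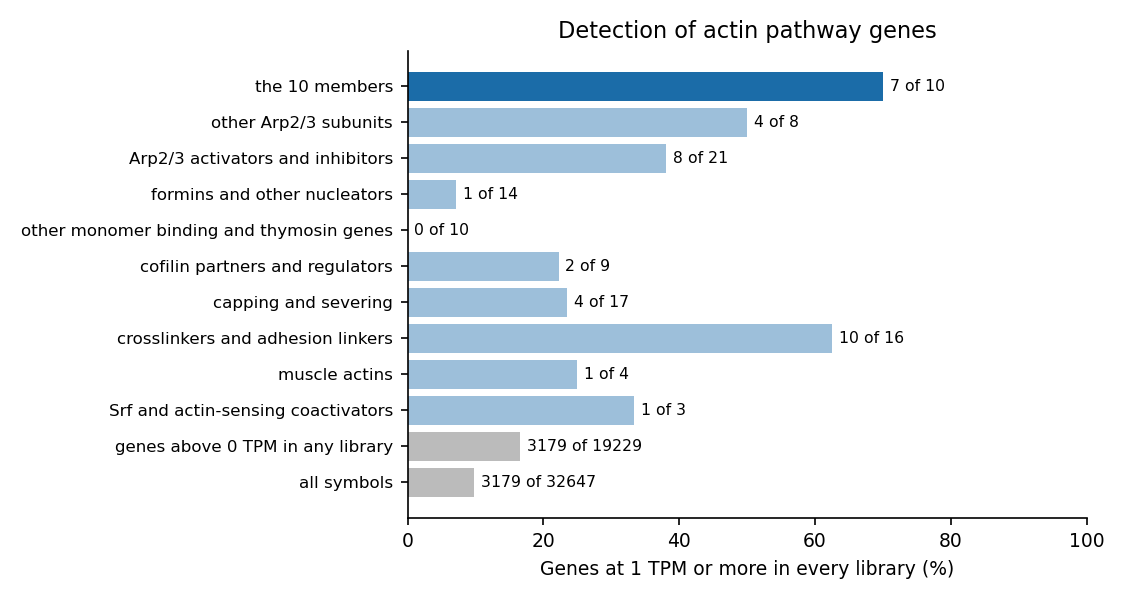
Percentage of genes at 1 TPM or more in every library for the 10 genes (dark bar), for the groups of further pathway genes (light bars) and for all genes (grey bars), with the counts beside each bar. The 10 genes stand at 7 of 10, crosslinkers at 10 of 16 and formins at 1 of 14, beside 3179 of 32647 symbols.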

How the data were processed

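RNA-seq libraries of recruited renin cells were analysed: 2 biological samples with 2 technical replicates each. The authors trimmed reads with Trimmomatic 0.36, quantified GRCm38 transcripts with Salmon 0.7.2 and used Tximport 1.2.0 for gene values. Which Ensembl release they used was not given in the sources used here. TPM was deposited with estimated counts (TPM scaled by gene length and depth, hence not whole numbers of reads), and with effective lengths. Their deposited mean TPM averages 3 libraries and omits technical replicate 1 of sample 1 (0 rows differ by more than 1e-06). It is used as an alternative only. Transcripts were amplified without molecular identifiers, so reads are not molecules, and counting intervals were not computed.

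Levels were computed from TPM with Python 3.11.15, pandas 2.3.3 and numpy 2.4.6 (figures: matplotlib 3.10.9). Technical replicates were averaged first, and the level is the mean ± SD of both biological samples (n = 2), an SD that leaves out the spread between technical replicates. Ratios used a pseudocount of 1 TPM. No p-value was computed. Coordinates are those of GENCODE M21 on GRCm38, which holds 31475 of the 32647 symbols (96.4%). Similar transcripts were sought with BLAST 2.17.0. Only the rule for a difference between the biological samples was tested on simulated data. The simulated libraries had less technical spread than these, so this does not show how the rule behaves at their spread.

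The members and the gene lists were chosen with earlier results of these data known. Named were the members, the 3 highest genes of each list, genes that differed between the samples where a list held 3 or fewer, genes behind a count of 5 or fewer, the 3 genes most like Actb and Tmsb4x, and markers. Dstn to Cfl1 and Tmsb4x to Actb were set side by side after their values were seen. Alternatives left out each library and each biological sample, rescaled TPM, and changed the minimum level, fold, pseudocount and unit.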

Additional observations from a re-analysis of the deposited data

Results flagged for a closer look

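In 5 of 36 quantities, 1 library lay far from the other 3. Such a gap is found by chance in about 1 in 20 groups of independent values, and these libraries are technical replicates of 2 samples, so they are not independent. Pfn1 was at 378 TPM in technical replicate 2 of sample 2, against 175 to 205 TPM elsewhere. The summed share of the 10 actin turnover genes was 0.364% of all TPM in technical replicate 1 of sample 2, against 0.608% to 0.648%. The capping and severing genes summed to 303 TPM in technical replicate 2 of sample 1, against 191 to 205 TPM. In technical replicate 2 of sample 2, the proximal tubule markers summed to 13047 TPM, of which Kap, a gene of the proximal tubule, took 11140 TPM, and the fibroblast markers to 5.52 TPM, against 33.0 to 35.1 TPM. The part of the tubule cells in the level of Pfn1 in that library was not tested.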

How the results depend on the processing

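Separated neighbours in the order of levels numbered 3 to 5 when each library was left out, against 3 (this alternative, and rescaling for the counts of detected and of technically variable genes, were chosen after seeing the data). Genes that differed between the biological samples numbered 3 to 6, against 3; a sample left with 1 library overlaps less by construction. The log2 ratio of Pfn1 to Pfn2 was 5.90 to 6.77 with each library left out, 7.32 and 4.22 with pseudocounts of 0.1 and 10, and 4.50 from estimated counts scaled to equal library totals, from which that of Tmsb4x to Tmsb10 was 4.88. The non-muscle share of the actins was 64.3% to 71.0% with each library left out. Of 20 comparisons of technical replicates, 8 were more than 2-fold apart, 4 more than 4-fold and 4 more than 2-fold with a pseudocount of 10. With 2 biological samples, leaving out 1 cannot move a mean by more than the SD, so it is no check of stability: by sample 1 or 2 alone, Arpc3 was at 10.0 or 0.309 TPM and Cfl2 at 2.49 or 26.8 TPM. At a minimum of 5 TPM, activators and inhibitors of Arp2/3 numbered 2 against 8, formins 0 against 1, and Srf with its coactivators 0 against 1. With a pseudocount of 10 the call for Arpc3 was lost. Arpc2, which was not called, was higher in sample 1 without technical replicate 1 of sample 2, and higher in sample 2 without technical replicate 2. Without technical replicate 2 of sample 2, the mean log2 ratio of Actb to Actg1 was −0.03, against 0.22. Of single levels, Arpc3 was at 1.79 TPM in the authors' mean, which leaves out its highest library, against 5.17 TPM. Technical replicates were more than 2-fold apart for 61.2% and 63.2% of genes in the range of the 10 (samples 1 and 2), against 34.6% and 37.7% at 100 TPM or more. The cause of this spread was not tested.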
